A study of Mus musculus with 75 samples.

Results

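Gene expression in the lungs of BLEO-IPF mice on day 21 after bleomycin (BLEO) was compared with that of control mice (CTRL).
All libraries that the sample labels assign to BLEO day 21 or to the saline controls were taken, 12 and 10 of the 75 libraries of the series. Each library came from 1 mouse.
Of the 55536 genes in the table of counts, the 16221 that passed a filter on low counts were tested. Both groups were male C57BL/6JRj mice, and the labels name no transgene or other genetic change. The labels give an age of 12 to 14 weeks for both, which the paper states as the age at BLEO instillation. Day 21 mice were thus older when killed. The labels give no day for CTRL mice, so their age at that point is not known here.
BLEO-IPF mice had been given a single intratracheal instillation of BLEO, and only animals that lost 5% to 17% of their body weight in the first week had been randomized, so the group holds no mouse outside that range.
CTRL mice had received saline by the sample labels, and into the trachea by the study's legends for the sequencing. The protocol text of the labels and the paper's methods for the time course call them untreated instead.
RNA was taken from the whole inferior lobe after the lungs had been rinsed for lavage fluid.
In such bulk RNA, fewer cells of a type and less RNA per cell cannot be told apart.

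Bleomycin breaks DNA strands, and in the airspaces it kills alveolar epithelial cells.
The lung answers with inflammation, recruitment of monocytes that become macrophages, proliferation, and activation of fibroblasts that lay down collagen-rich matrix under the control of transforming growth factor beta (TGF-β).
Alveolar type 2 (AT2) cells, which make surfactant, are the progenitors that replace the flat alveolar type 1 (AT1) cells of gas exchange, and they pass through a keratin-rich transitional state on the way.

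Total counts on genes ranged from 9662299 to 14665247 in CTRL mice and from 9800483 to 12640351 on day 21. Mitochondrially encoded genes took 1.62% to 2.09% and 1.12% to 1.83% of them.
Lung markers were abundant in every mouse, with *Sftpc*, the surfactant protein C gene of AT2 cells, at 12126 to 15394 CPM in CTRL mice (median 13751) and at 5267 to 18435 CPM on day 21 (median 11939.5).
Levels are in CPM, counts per 1000000 counts of a library scaled with TMM factors, and changes are log2 fold changes (log2FC) from edgeR's quasi-likelihood F test over all 75 mice, with Benjamini-Hochberg adjusted p-values over all genes tested.
Differentially expressed genes (DEGs) were those with an adjusted p under 0.05.

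On day 21, 8788 genes were DEGs against CTRL (54.2% of those tested), 4598 upregulated (28.3%) and 4190 downregulated (25.8%).
A change of at least 2-fold, an absolute log2FC of at least 1, was found in 1635 of the DEGs.
All 12 day 21 mice lay above all 10 CTRL mice for 1110 of the upregulated genes (6.84% of the genes tested) and below them for 787 of the downregulated genes (4.85%).
Since more than every other gene was a DEG, a DEG among the members of a gene list is by itself no particular result. The counts of every list below are to be read against 28.3% of all genes upregulated and 25.8% downregulated.
The median log2FC over all genes tested was 0.01.

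The largest increases with non-overlapping groups included genes of the extracellular matrix and of macrophages.
*Thbs4* (ENSMUSG00000021702, chr13:92751590-92794818 on the GRCm38 genome), which encodes the secreted matrix protein thrombospondin-4, ranged from 0.0795 to 0.719 CPM (median 0.367) in CTRL mice and from 9.18 to 79.8 CPM (median 38.1) on day 21, a 104-fold increase (log2FC 6.69, SE 0.69, adjusted p = 1.55e-12).
The neural adhesion molecule gene *Chl1* (ENSMUSG00000030077, chr6:103510586-103750211) ranged from 0.0928 to 0.571 CPM (median 0.389) in CTRL mice and from 4.00 to 109 CPM (median 18.01) on day 21 (log2FC 6.53, SE 0.83, adjusted p = 7.85e-10).
*Grem1* (ENSMUSG00000074934, chr2:113746164-113758646), a secreted antagonist of bone morphogenetic proteins, lay at 0.307 to 1.28 CPM in CTRL mice (median 0.589) and at 5.22 to 154 CPM on day 21 (median 19.8) (log2FC 5.95, SE 0.87, adjusted p = 3.28e-08).
These 3 genes were close to absent in CTRL lungs and were found in every day 21 mouse. *Cemip* (ENSMUSG00000052353, chr7:83932857-84086502), whose protein breaks down hyaluronan, ranged from 0.0955 to 0.954 CPM (median 0.485) in CTRL mice and from 5.06 to 87.4 CPM (median 15.3) on day 21 (log2FC 5.63, SE 0.76, adjusted p = 4.13e-09).
*Spp1* (ENSMUSG00000029304, chr5:104435118-104441050), the osteopontin gene, lay at 26.99 to 122 CPM in CTRL mice (median 66.8) and at 691 to 6408 CPM on day 21 (median 1769.97), a 34.9-fold increase (log2FC 5.13, SE 0.53, adjusted p = 1.71e-12).
*Mmp12* (ENSMUSG00000049723, chr9:7344381-7369499), the elastase of macrophages, ranged from 4.22 to 15.3 CPM (median 5.84) in CTRL mice and from 55.4 to 678 CPM (median 148) on day 21 (log2FC 4.73, SE 0.43, adjusted p = 2.35e-14).
Every day 21 mouse exceeded every CTRL mouse for each of these genes.

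*Timp1* (ENSMUSG00000001131, chrX:20870166-20874735), an inhibitor of matrix metalloproteinases, lay at 3.78 to 6.52 CPM in CTRL mice (median 5.31) and at 15.2 to 329 CPM on day 21 (median 40.7) (log2FC 4.18, SE 0.50, adjusted p = 1.65e-10).
*Eln* (ENSMUSG00000029675, chr5:134702593-134747323), the gene of elastin, ranged from 126 to 207 CPM (median 149) in CTRL mice and from 806 to 5189.9 CPM (median 2482) on day 21, a 17.3-fold increase (log2FC 4.11, SE 0.40, adjusted p = 2.03e-13).
*Trem2* (ENSMUSG00000023992, chr17:48346401-48354147), a lipid-sensing receptor of macrophages, ranged from 2.08 to 3.90 CPM (median 2.94) in CTRL mice and from 30.4 to 59.98 CPM (median 45.2) on day 21 (log2FC 3.93, SE 0.28, adjusted p = 1.52e-18).
The day 21 mice were close to each other for *Trem2* and far apart for *Timp1*.
The other genes among the 12 largest increases were the laminin chain gene *Lama1* (ENSMUSG00000032796, chr17:67697259-67822647, log2FC 3.98, median 2.46 against 34.97 CPM), *Megf11* (ENSMUSG00000036466, chr9:64385626-64709205, log2FC 4.41, 0.447 against 8.02 CPM) and the aggrecan-cleaving protease gene *Adamts4* (ENSMUSG00000006403, chr1:171250421-171260637, log2FC 4.68, 0.713 against 11.2 CPM).
*Adamts4* overlaps a gene on the opposite strand that holds 1052% as many counts. As the handling of strand in counting is not given in the sources used here, its value is uncertain.

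The largest decreases with non-overlapping groups were led by *Cyp1a1* (ENSMUSG00000032315, chr9:57687928-57703824), a cytochrome P450 that is induced through the aryl hydrocarbon receptor.
It lay at 12.1 to 24.8 CPM in CTRL mice (median 14.7) and at 0.315 to 2.79 CPM on day 21 (median 1.04), and was 12.4-fold lower on day 21 (log2FC -3.63, SE 0.58, adjusted p = 2.42e-07).
*Krt79* (ENSMUSG00000061397, chr15:101929332-101940324), a keratin gene that also marks resident alveolar macrophages, ranged from 13.95 to 24.6 CPM (median 17.7) in CTRL mice and from 1.02 to 5.11 CPM (median 1.93) on day 21 (log2FC -2.87, SE 0.40, adjusted p = 9.92e-09).
*Gria1* (ENSMUSG00000020524, chr11:57011387-57330244), a glutamate receptor subunit gene, lay at 28.8 to 45.8 CPM in CTRL mice (median 36.7) and at 1.36 to 15.9 CPM on day 21 (median 4.81) (log2FC -2.52, SE 0.36, adjusted p = 1.58e-08).
*Igfbp3* (ENSMUSG00000020427, chr11:7206086-7213923), which encodes a binding protein of insulin-like growth factors, ranged from 71.01 to 135 CPM (median 106) in CTRL mice and from 9.02 to 51.7 CPM (median 16.1) on day 21 (log2FC -2.26, SE 0.31, adjusted p = 5.21e-09).
For all of these, the highest day 21 mouse was below the lowest CTRL mouse.
The others were *Cst8* (ENSMUSG00000027442, chr2:148798785-148805595, log2FC -2.95), *Bex2* (ENSMUSG00000042750, chrX:136066564-136068236, -2.46), *Gsg1l* (ENSMUSG00000046182, chr7:125878420-126082411, -2.19), an auxiliary subunit of glutamate receptors like *Gria1*, and *Tmem132d* (ENSMUSG00000034310, chr5:127781630-128433077, -2.12).

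**Figure D1:**
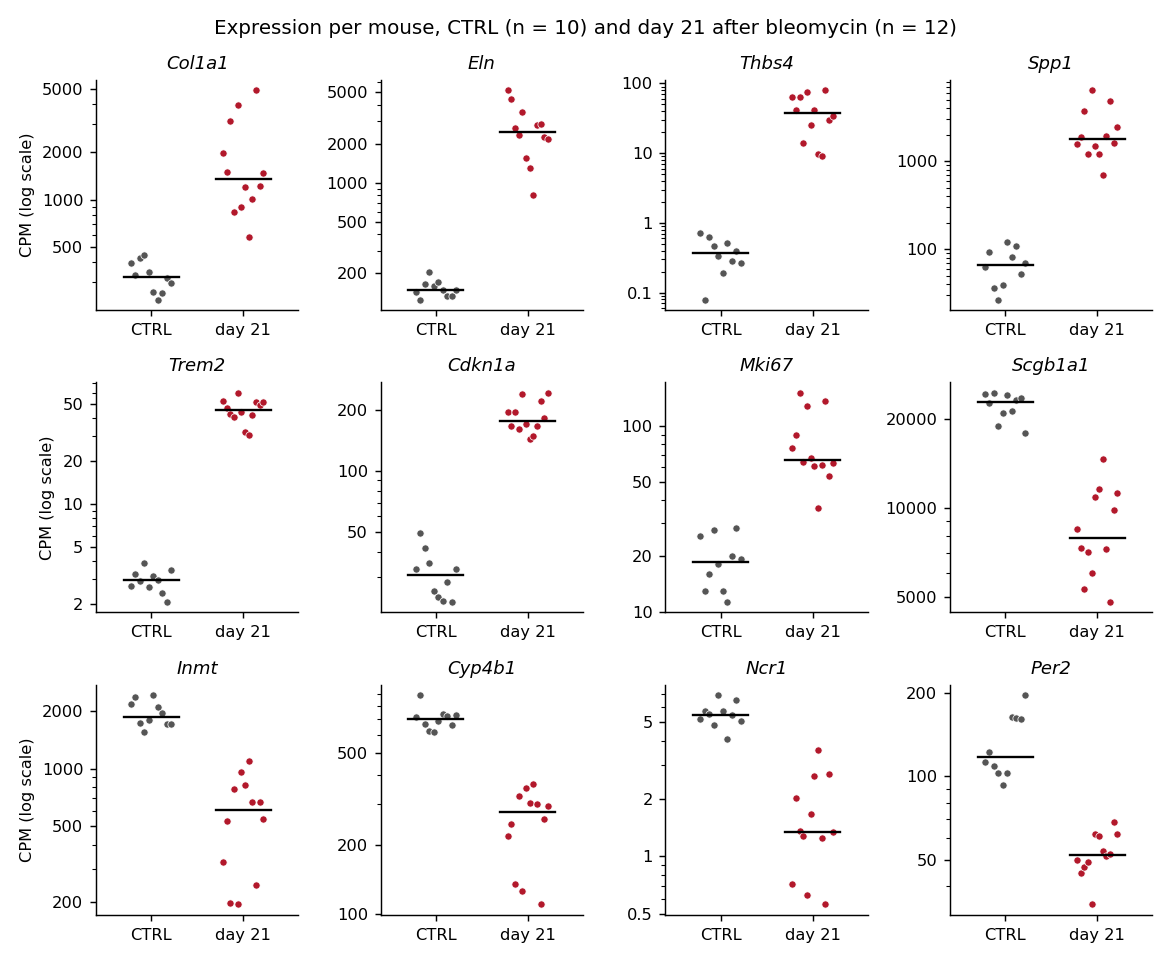
CPM (log axis) of 12 genes in each CTRL mouse (gray points, n = 10) and each day 21 mouse (red points, n = 12), with the median of each group as a black line. Day 21 mice lie above all CTRL mice for *Col1a1*, *Eln*, *Thbs4*, *Spp1*, *Trem2*, *Cdkn1a* and *Mki67*, and below all of them for *Scgb1a1*, *Inmt*, *Cyp4b1*, *Ncr1* and *Per2*.

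Genes of the interstitial matrix were upregulated almost without exception.
All 9 fibrillar collagen genes rose, against a background of 28.3% of all genes, with a median log2FC of 2.51.
The smallest of these changes, in *Col27a1* (named after its values were seen), was 0.26 (SE 0.11, adjusted p = 0.0366), and its call was lost with DESeq2, with either other scaling and without the filter, and held in 11 of the 22 fits that left out 1 mouse.
*Col1a1*, one of the chains of type I collagen, ranged from 233 to 443 CPM (median 325) in CTRL mice and from 581 to 4910.2 CPM (median 1348) on day 21, a 5.71-fold increase (log2FC 2.51, SE 0.33, adjusted p = 1.80e-09), and every day 21 mouse exceeded every CTRL mouse.
*Col3a1*, the chain of type III collagen, lay at 449.9 to 869 CPM in CTRL mice (median 621) and at 1761 to 4592 CPM on day 21 (median 2599) (log2FC 2.16, SE 0.19, adjusted p = 3.58e-15).
*Col1a2* had a log2FC of 1.87.
The minor chains of type V collagen, which start fibrils, (*Col5a1*, *Col5a2* and *Col5a3*) rose by 2.43, 2.51 and 3.24 on the log2 scale.
*Col11a1*, a collagen of cartilage, had the largest fitted change, from at most 4 counts in any CTRL mouse (0 to 0.395 CPM) to 0.0835 to 40.2 CPM on day 21 (median 2.97).
Of the day 21 mice 11 of 12 were above all CTRL mice. Of 20 other matrix proteins 19 rose (median log2FC 2.31), and only *Col14a1* did not pass the test (log2FC 0.14).
Fibronectin (*Fn1*) ranged from 405 to 654 CPM (median 522) in CTRL mice and from 1185 to 8210.01 CPM (median 2783) on day 21 (log2FC 2.81, adjusted p = 4.10e-10), without overlap.
Tenascin-C (*Tnc*), a protein of healing wounds, ranged from 16.5 to 40.9 CPM (median 26.6) in CTRL mice and from 114 to 1029 CPM (median 248) on day 21 (log2FC 3.84, adjusted p = 1.88e-12).
*Postn*, the periostin gene, rose by little (log2FC 0.20, SE 0.08, adjusted p = 0.0219), at medians of 547 and 599 CPM with overlapping groups.
*Fbn1*, the fibrillin of elastic fibers, *Thbs2* and *Cthrc1*, a secreted protein of activated fibroblasts, rose by 2.16, 3.21 and 2.33.

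Enzymes that modify and crosslink collagen had a lower median change than the collagens.
In this list 17 of 20 genes rose and 1 fell, with a median log2FC of 0.81, and 11 of the 18 DEGs had an absolute log2FC of at least 0.5.
The lysyl oxidase *Lox*, which crosslinks collagen and elastin, lay at 51.8 to 81.4 CPM in CTRL mice (median 62.4) and at 103 to 678 CPM on day 21 (median 205) (log2FC 2.23, adjusted p = 3.55e-08).
The related *Loxl2* lay at 17.9 to 34.9 CPM in CTRL mice (median 23.3) and at 46.6 to 212 CPM on day 21 (median 82.01) (log2FC 1.98, adjusted p = 6.85e-12).
Neither gene overlapped between the groups.
*P4ha3*, a subunit of prolyl 4-hydroxylase, had the largest rise (log2FC 3.20, adjusted p = 3.00e-10, medians 2.25 and 18.9 CPM), whereas the subunit *P4ha1* did not pass the test (log2FC -0.11).
*P3h2*, a prolyl 3-hydroxylase, was the one that fell (log2FC -0.49, adjusted p = 3.17e-04), with all day 21 mice below all CTRL mice. In the basement membrane, 15 of 19 genes rose and 1 fell, with a smaller median log2FC of 0.43.
The ubiquitous type IV collagen chain *Col4a1* ranged from 790.04 to 1248 CPM (median 1062) in CTRL mice and from 1539 to 3774 CPM (median 2904) on day 21 (log2FC 1.42, adjusted p = 2.29e-11).
The alveolar chain *Col4a3* rose by 0.32 and *Col4a6* fell (log2FC -0.58, adjusted p = 0.00145).
*Lama3*, a laminin chain of epithelium, had a log2FC of 0.15 and did not pass the test.

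Among matrix proteases and their inhibitors 12 of 17 rose and 1 fell (median log2FC 1.93).
The gelatinase *Mmp2* ranged from 79.2 to 133 CPM (median 109) in CTRL mice and from 358 to 627 CPM (median 488) on day 21 (log2FC 2.19, adjusted p = 1.60e-21).
*Mmp14*, which activates it, rose by 2.25 and the collagenase *Mmp13* by 3.18.
The collagen-degrading cathepsin *Ctsk* lay at 25.2 to 40.9 CPM in CTRL mice (median 31.9) and at 109 to 277 CPM on day 21 (median 203) (log2FC 2.61, adjusted p = 3.35e-12).
*Mmp9*, a gelatinase of neutrophils and other cells, was the one that fell (log2FC -0.81, adjusted p = 0.0128, medians 13.2 and 6.58 CPM).
The family of inhibitors was split, since *Timp1* rose 18.2-fold while *Timp2* and *Timp3*, at medians of 908 and 1609 CPM in CTRL mice, did not pass the test (log2FC 0.05 and -0.18).

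**Figure D2:**
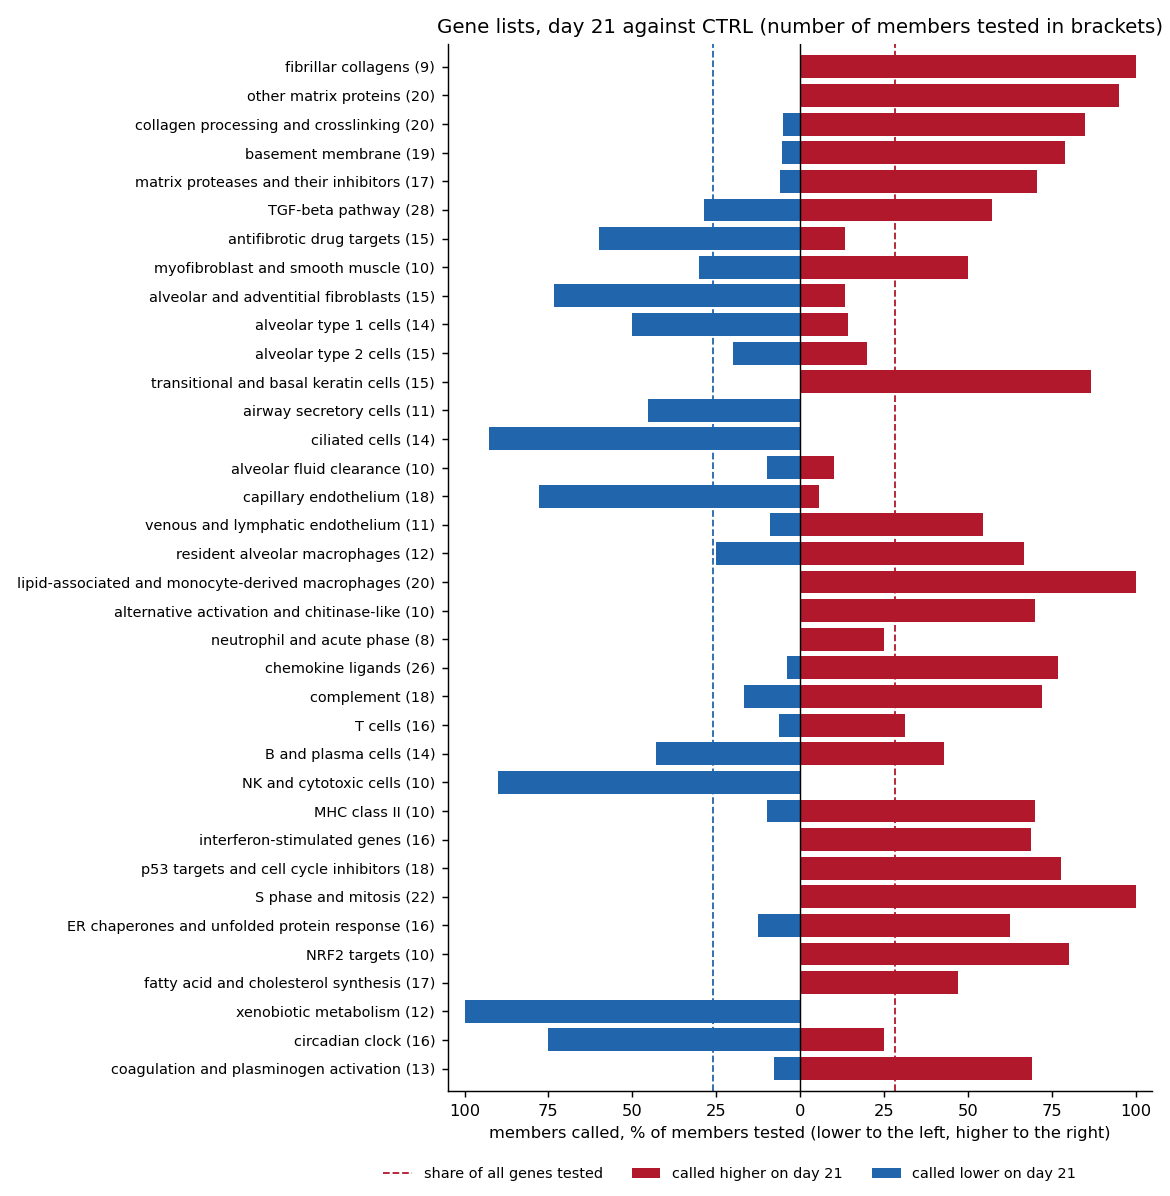
Share of the tested members of each gene list (number in brackets) that were called higher (red bars, to the right) or lower (blue bars, to the left) on day 21 than in CTRL mice, in percent. The dashed lines mark the shares among all genes tested, 28.3% and 25.8%. Bars reach 100% to the right for fibrillar collagens, lipid-associated macrophages, and S phase and mitosis, and to the left for xenobiotic metabolism.

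In the TGF-β pathway 16 of 28 genes rose (57.1%, against 28.3% of all genes) and 8 fell (28.6%, near the 25.8% of all genes). Ligands, receptors and targets are given in turn.
The ligands rose modestly, with *Tgfb1* at 60.97 to 85.6 CPM in CTRL mice (median 76.96) and at 69.9 to 149 CPM on day 21 (median 104) (log2FC 0.49, adjusted p = 2.05e-06).
*Tgfb2* rose by 0.74 and *Tgfb3* by 1.10, and the last 2 had non-overlapping groups.
Of the latency proteins, which hold the ligands in the matrix, *Ltbp2* rose by 2.12 and *Ltbp4* fell (log2FC -0.88, adjusted p = 1.73e-08), and the ligand-activating integrin subunit *Itgb6* rose by 1.38.
The signaling receptors *Tgfbr1* and *Tgfbr2* rose by 0.60 and 0.53.
The coreceptor *Tgfbr3* fell, between 135 and 181 CPM in CTRL mice, with a median of 150.3, and between 47.1 and 86.5 CPM on day 21, with a median of 64.3 (log2FC -1.19, adjusted p = 2.04e-14).
The endothelial receptors *Acvrl1* and *Eng* fell too (log2FC -0.61 and -0.59).
Among targets, the activin subunit *Inhba* rose (log2FC 3.28, adjusted p = 6.50e-07), whereas the inhibitory signal transducers *Smad6* and *Smad7* fell (log2FC -0.78 and -0.36).
*Inhba* ranged from 1.81 to 3.87 CPM (median 2.87) in CTRL mice and from 3.59 to 90.1 CPM (median 10.5) on day 21, and 11 of 12 day 21 mice lay above all CTRL mice.

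Genes of receptors and enzymes addressed by antifibrotic drugs went down more often than up, with 9 of 15 lower and 2 higher (median log2FC -0.44).
The platelet-derived growth factor receptors of mesenchymal cells were split, as *Pdgfrb* rose (log2FC 0.47, adjusted p = 7.21e-04) and *Pdgfra* did not pass the test (log2FC -0.12).
*Fgfr1* rose by 0.57, while the fibroblast growth factor receptors *Fgfr2*, *Fgfr3* and *Fgfr4* fell, the last (log2FC -1.14, adjusted p = 3.21e-06) at 33.99 to 53.4 CPM in CTRL mice (median 38.1) and at 8.28 to 29.5 CPM on day 21 (median 20.4).
The vascular endothelial growth factor receptor *Kdr* ranged from 574 to 722 CPM (median 611) in CTRL mice and from 241 to 488 CPM (median 372) on day 21 (log2FC -0.75, adjusted p = 8.74e-05).
*Lpar1*, a receptor of lysophosphatidic acid, had a log2FC of 0.01 against CTRL (SE 0.12) and overlapping groups.

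Mesenchymal marker genes did not move together.
The contractile genes *Acta2* and *Tagln* rose by 0.50 and 0.46, with overlapping groups.
*Acta2*, the smooth muscle actin of myofibroblasts, ranged from 191 to 249.995 CPM (median 222) in CTRL mice and from 156 to 588 CPM (median 261) on day 21.
The smooth muscle genes *Cnn1* and *Myh11* fell (log2FC -0.54 and -0.59). In all, 5 of the 10 members rose (50%) and 3 fell (30%), against 28.3% and 25.8% of all genes.
Of 15 markers of alveolar and adventitial fibroblasts 11 fell and 2 rose (median log2FC -0.61).
*Tcf21*, a transcription factor of lipofibroblasts, ranged from 86.8 to 142 CPM (median 115) in CTRL mice and from 33.4 to 85.9 CPM (median 72.8) on day 21 (log2FC -0.90, adjusted p = 2.19e-05).
The methyltransferase gene *Inmt* ranged from 1552 to 2425 CPM (median 1868) in CTRL mice and from 195 to 1101 CPM (median 606) on day 21 (log2FC -1.73, adjusted p = 1.96e-07).
The largest fall was in the amino acid transporter *Slc7a10* (log2FC -1.87, adjusted p = 3.52e-04), and *Npnt* and *Pi16*, a marker of adventitial fibroblasts, fell by 0.44 and 0.77.
*Cd34* was one of the 2 that rose (log2FC 0.69, adjusted p = 7.87e-13), and it also marks endothelium.

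AT2 markers changed little on average, whereas AT1 markers were lower more often than genes at large.
Of 15 AT2 genes 3 rose and 3 fell, a share in either direction below that of all genes.
*Sftpc* (log2FC -0.27, SE 0.18, adjusted p = 0.208), the lipid transporter *Abca3* and *Lamp3* (log2FC 0.14 and -0.24) did not pass the test.
The values of *Sftpc* on day 21 spanned more than those in CTRL mice, on both sides of them.
The chemokine *Cxcl15* of alveolar epithelium rose (log2FC 0.62, adjusted p = 6.22e-04).
The lysozyme gene *Lyz1* fell, between 259 and 476 CPM in CTRL mice, with a median of 335, and between 46.3 and 251 CPM on day 21, with a median of 175 (log2FC -1.17, adjusted p = 0.00318). Among 14 AT1 genes 7 fell (50%, against 25.8% of all genes) and 2 rose (14.3%, against 28.3%), with a median log2FC of -0.24. The median of the list lay at -0.73 to -0.07 from the CTRL mean in day 21 mice and at -0.16 to 0.21 in CTRL mice.
*Ager*, the receptor for advanced glycation end products, did not pass the test (log2FC -0.03), nor did the water channel *Aqp5* (0.14), whereas *Hopx* fell (log2FC -0.55, adjusted p = 8.81e-04) and *Sec14l3* had the largest fall (log2FC -0.83, adjusted p = 6.83e-06).
*Pdpn*, which also marks lymphatic endothelium and fibroblasts, rose by 0.59.
Channels and pumps of alveolar fluid clearance were mostly without a call, 1 of 10 higher and 1 lower. The sodium channel subunits *Scnn1a* and *Scnn1b* had log2FC of -0.17 and -0.20, while *Scnn1g* rose by 0.33 and the chloride channel *Cftr* fell (log2FC -0.59, adjusted p = 0.0163). In an edgeR fit of the CTRL and day 21 mice alone, 5 of the 10 were called.

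Keratins and markers of the transitional state were upregulated, with 13 of 15 tested members higher (median log2FC 1.12).
*Krt8* ranged from 119 to 175 CPM (median 146) in CTRL mice and from 158 to 327 CPM (median 209.7) on day 21 (log2FC 0.59, SE 0.12, adjusted p = 1.58e-05), and 10 of 12 day 21 mice lay above all CTRL mice.
The tight junction gene *Cldn4* lay at 4.05 to 7.64 CPM in CTRL mice (median 6.42) and at 15.1 to 72.1 CPM on day 21 (median 26.5) (log2FC 2.52, adjusted p = 7.91e-09), without overlap.
*Sfn*, *Krt18* and *Sprr1a*, a gene of the cornified envelope, rose by 1.99, 0.66 and 4.14.
Keratins of basal cells were at the limit of detection in CTRL lungs.
*Krt17* had 0 counts in all 10 CTRL mice and 0 to 35 counts on day 21 (median 0.940 CPM), at least 3.50-fold higher on average than a floor of 3 counts per library, and the median of the list was the same with this bound.
*Krt5* had at most 1 count in CTRL mice and 0 to 83 counts on day 21.

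Airway genes fell or did not pass the test.
*Scgb1a1*, the club cell secretoglobin, ranged from 17908 to 24458 CPM (median 22821) in CTRL mice and from 4795 to 14571 CPM (median 7872) on day 21, and was 2.54-fold lower (log2FC -1.34, SE 0.22, adjusted p = 4.14e-07).
*Scgb3a2* (log2FC -1.48, adjusted p = 8.99e-07) and the cytochrome P450 *Cyp2f2* (log2FC -1.45, adjusted p = 3.36e-06) of club cells fell in step, also without overlap between the groups.
The mucin *Muc5b* did not pass the test (log2FC -0.47), and in all 5 of 11 secretory genes were lower. Of 14 genes of ciliated cells 13 fell (median log2FC -1.01), against 25.8% of all genes.
*Foxj1*, the transcription factor of motile cilia, lay at 70.1 to 104.7 CPM in CTRL mice (median 90.8) and at 38.1 to 75.7 CPM on day 21 (median 54.96) (log2FC -0.71, SE 0.17, adjusted p = 2.52e-04), with 11 of 12 day 21 mice below all CTRL mice.
The axonemal genes *Dnah5* and *Ccdc39* fell by 1.06 and 0.87, and *Tppp3* had the largest fall (log2FC -1.28, adjusted p = 6.90e-07).
*Mcidas*, which starts the ciliated fate, was the one without a call (log2FC 0.14, median 0.687 CPM in CTRL mice).

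Endothelial genes differed by vessel type.
Of 18 genes of capillary endothelium 14 fell and 1 rose (median log2FC -0.60).
*Pecam1*, which all endothelial cells carry, ranged from 842 to 997 CPM (median 944) in CTRL mice and from 582 to 851 CPM (median 751) on day 21 (log2FC -0.34, adjusted p = 0.00212).
*Ednrb*, the endothelin receptor of aerocytes, fell by 1.33 (adjusted p = 7.01e-06).
*Cyp4b1* had the largest fall, between 617 and 893 CPM in CTRL mice, with a median of 703, and between 109.8 and 366 CPM on day 21, with a median of 276 (log2FC -1.48, SE 0.23, adjusted p = 9.96e-08).
*Car4* fell by 0.43, *Gpihbp1* did not pass the test (log2FC -0.16), and *Nos3*, the nitric oxide synthase of endothelium, rose by 0.38. Of 11 venous and lymphatic genes, in contrast, 6 rose and 1 fell (median log2FC 0.41).
*Vwf*, the von Willebrand factor, rose by 0.41.
*Prox1*, the transcription factor of lymphatic endothelium, lay at 2.62 to 4.64 CPM in CTRL mice (median 4.01) and at 7.43 to 19.6 CPM on day 21 (median 12.5) (log2FC 1.71, adjusted p = 1.22e-09).
The chemokine-binding receptor *Ackr1* of venules was counted 0 to 4 times per CTRL mouse and 14 to 194 times on day 21 (log2FC 4.56, adjusted p = 2.83e-09).
*Lyve1*, a hyaluronan receptor of lymphatic endothelium and of some macrophages, fell (log2FC -1.08, adjusted p = 1.20e-04), and *Vcam1* did not pass the test (log2FC 0.06).

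All 20 genes of lipid-associated and monocyte-derived macrophages rose, with a median log2FC of 1.84.
These macrophages take up lipid and debris, and in fibrosis they surround sites of matrix deposition.
Beside *Spp1*, *Trem2* and *Mmp12*, the lysosomal glycoprotein *Gpnmb* ranged from 14.3 to 22.3 CPM (median 16.3) in CTRL mice and from 129 to 433 CPM (median 186) on day 21 (log2FC 3.59, adjusted p = 2.73e-13).
The complement subunits *C1qa*, *C1qb* and *C1qc*, which tissue macrophages make together, rose by similar amounts (log2FC 2.47, 2.67 and 2.44), as did *Ms4a7* (2.84) and the lysosomal protease *Ctsd* (2.12).
Markers of recent monocytes rose less, by 0.68 for the chemokine receptor *Ccr2* and 1.03 for *Cx3cr1*. Markers of resident alveolar macrophages were mixed, with 8 of 12 higher (66.7%) and 3 lower (25%), against 28.3% and 25.8% of all genes.
The scavenger receptor *Marco* rose, between 4.21 and 13.7 CPM in CTRL mice, with a median of 6.91, and between 6.04 and 102 CPM on day 21, with a median of 30.4 (log2FC 2.31, adjusted p = 1.71e-05), and 9 of 12 day 21 mice lay above all CTRL mice.
The sialic acid receptor *Siglecf* rose by 0.44 and the nuclear receptor *Pparg* by 0.63, while *Krt79* and the lipid droplet gene *Cidec* fell (log2FC -2.87 and -1.62). The call of *Cidec* as higher on day 28 was lost without day 28 replicate 10, a mouse with high levels of fat genes. The part of fat RNA in its fall on day 21 was not tested.
Since the lungs had been rinsed before RNA was taken, the values of macrophage genes hold for the cells that remained, and the part of the rinse in them was not tested.
Of genes of alternative activation and chitinase-like proteins 7 of 10 rose, led by arginase, *Arg1* (log2FC 3.41, adjusted p = 2.62e-05, 11 of 12 day 21 mice above all CTRL mice).
The resistin-like *Retnla* lay at 20.02 to 47.9 CPM in CTRL mice (median 32.1) and at 92.96 to 631 CPM on day 21 (median 272) (log2FC 3.32, adjusted p = 1.28e-10), whereas *Chil1* did not pass the test (log2FC 0.33).

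Neutrophil genes were near the level of CTRL mice.
*S100a8* ranged from 7.55 to 26.7 CPM (median 16.6) in CTRL mice and from 7.90 to 28.5 CPM (median 15.7) on day 21 (log2FC -0.03, SE 0.31), with overlapping groups.
Of 12 listed members 8 were tested, and 2 of these rose (25%, near the 28.3% of all genes). They were the acute phase genes *Saa3* (log2FC 5.05, adjusted p = 3.45e-07, medians 1.13 and 15.1 CPM) and *Lcn2* (log2FC 2.35, adjusted p = 1.32e-13), which epithelial cells also make.
Chemokines rose in 20 of 26 cases (median log2FC 1.19).
*Ccl2*, which draws monocytes, had the largest rise (log2FC 3.63, adjusted p = 2.43e-07) at low counts, at 0.286 to 1.15 CPM in CTRL mice (median 0.783) and at 2.61 to 28.8 CPM on day 21 (median 3.57).
The stromal *Cxcl12* and the B cell chemokine *Cxcl13* rose by 0.78 and 1.38, the interferon-induced *Cxcl9* by 3.21, and *Cx3cl1* fell (log2FC -0.61, adjusted p = 6.49e-07). In the complement system 13 of 18 genes rose.
*C3* rose by 0.39, *C4b* by 0.81 and the receptor *C3ar1* by 2.63.
The largest fall was in *Cfd*, the factor D gene, which is mainly made by fat cells (log2FC -3.64, adjusted p = 0.00805).

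In the rinsed lobe, lymphocyte genes moved in different directions by cell type, and the part of the rinse in them was not tested.
The pan-T cell gene *Cd3e* ranged from 3.71 to 6.99 CPM (median 4.83) in CTRL mice and from 2.34 to 8.49 CPM (median 5.22) on day 21 and did not pass the test (log2FC -0.12), nor did *Cd4* (0.10) or *Cd8a* (-0.45), and *Cd8b1* fell (log2FC -0.68, adjusted p = 0.0141).
Of 16 T cell genes 5 rose (31.25%), a share near the 28.3% of all genes. They were *Icos*, *Foxp3*, *Ctla4*, *Pdcd1* and *Tigit*, which mark activated or regulatory cells. When only genes with 10 or more counts in each mouse were kept, 12 of the list were left and 2 were called in either direction.
*Pdcd1*, the checkpoint receptor PD-1, lay at 0.0955 to 0.730 CPM in CTRL mice (median 0.269) and at 1.04 to 4.34 CPM on day 21 (median 2.11) (log2FC 2.72, SE 0.42, adjusted p = 1.15e-07), without overlap.
*Ctla4* rose by 1.48. B cell and plasma cell genes went in opposite directions, 6 of 14 lower and 6 higher.
The B cell gene *Pax5* fell (log2FC -0.997, adjusted p = 0.00265), with *Ms4a1* at -0.95 and *Cd79a* at -0.87.
The antibody constant regions *Igha*, *Ighg1* and *Ighg2c* rose (log2FC 2.35, 2.89 and 4.38), as did the joining chain *Jchain* (2.22), while *Ighm* did not pass the test (-0.38).
*Igha* ranged from 29.1 to 137 CPM (median 52.3) in CTRL mice and from 41.97 to 838 CPM (median 252) on day 21, and 8 of 12 day 21 mice lay above all CTRL mice. Of 10 genes of natural killer (NK) and cytotoxic cells 9 fell (median log2FC -1.10).
*Ncr1*, the receptor NKp46 that is most particular to NK cells, ranged from 4.09 to 6.92 CPM (median 5.49) in CTRL mice and from 0.562 to 3.59 CPM (median 1.35) on day 21, and was 3.31-fold lower (log2FC -1.73, SE 0.30, adjusted p = 1.57e-06).
The granule genes *Nkg7* and *Gzma* fell by 0.71 and 1.31, and *Gzma* had non-overlapping groups.
*Klrk1*, which T cells share, was the member without a call (log2FC -0.29).
Genes of antigen presentation by MHC class II rose in 7 of 10 cases, *H2-Ab1* by 0.65, the invariant chain *Cd74* by 0.63, the transactivator *Ciita* by 0.47 and *H2-DMb1* by 0.81, and the B cell-associated *H2-Ob* fell (log2FC -0.62, adjusted p = 0.0308).

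Interferon-stimulated genes rose in 11 of 16 cases (median log2FC 1.05).
Interferons act through a response element in the promoters of these genes, and the stretches around it are printed to show what genes of the list share in sequence.
Of the 10 of 16 members with a promoter in the RefSeq table for GRCm38.p6, 7 (70%) held the letters TTTC, any 2 letters and TTTC again on either strand within 250 bases before the start of transcription, against 3.46% of all 27025 genes of the table, and 6 of these 7 rose.
The windows of 60 bases lie for *Isg15* at chr4:156200862-156200921, minus strand, *Oas1a* at chr5:120907526-120907585, minus strand, *Oas3* at chr5:120777700-120777759, minus strand and *Rsad2* at chr12:26456538-26456597, minus strand.
Each is printed 5′ to 3′ along its gene with the element in capitals, and a match describes the letters and is not evidence of binding.
Isg15: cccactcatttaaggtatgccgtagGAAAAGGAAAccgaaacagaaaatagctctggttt
Oas1a: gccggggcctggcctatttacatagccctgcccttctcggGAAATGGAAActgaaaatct
Oas3: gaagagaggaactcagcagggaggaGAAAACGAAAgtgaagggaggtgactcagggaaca
Rsad2: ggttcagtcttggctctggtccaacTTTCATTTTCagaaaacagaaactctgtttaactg

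Of the genes with these windows, *Isg15*, a ubiquitin-like modifier, ranged from 5.44 to 10.9 CPM (median 7.11) in CTRL mice and from 11.7 to 47.7 CPM (median 19.2) on day 21 (log2FC 1.501, SE 0.20, adjusted p = 2.08e-09), without overlap.
*Oas3*, which makes the activator of an RNA-degrading enzyme, lay at 1.24 to 4.82 CPM in CTRL mice (median 2.87) and at 4.08 to 21.8 CPM on day 21 (median 8.32) (log2FC 1.81, adjusted p = 6.46e-07), the largest rise.
*Oas1a* and *Rsad2* rose by 1.35 and 1.35.
*Ifit1* and the transcription factor *Irf7* rose by 1.11 and 0.99, whereas *Ifit3*, which holds the element too, and *Ifit2* did not pass the test (log2FC 0.18 and 0.21).

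Targets of p53, the transcription factor that DNA damage activates, rose in 14 of 18 cases together with inhibitors of the cell cycle (median log2FC 0.85).
*Cdkn1a*, which encodes the inhibitor p21, ranged from 22.6 to 49.3 CPM (median 30.8) in CTRL mice and from 145 to 244 CPM (median 177) on day 21, a 5.92-fold increase (log2FC 2.57, SE 0.15, adjusted p = 1.05e-22), with all day 21 mice above all CTRL mice.
*Gdf15*, a stress-induced cytokine, lay at 0.593 to 1.71 CPM in CTRL mice (median 1.00) and at 3.96 to 9.92 CPM on day 21 (median 5.90) (log2FC 2.57, adjusted p = 6.99e-17), also without overlap.
*Eda2r*, *Phlda3* and *Ccng1* rose by 2.06, 1.34 and 1.26.
*Mdm2*, the ligase that removes p53, rose by 0.22, and *Cdkn2a*, a marker of senescent cells, by 2.53.
*Cdkn2a* lay at 0.0928 to 1.13 CPM in CTRL mice (median 0.415) and at 0.899 to 5.03 CPM on day 21 (median 2.95).

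Genes of proliferation rose at the same time as these inhibitors, 22 of 22 members with a median log2FC of 1.94.
E2F factors switch on DNA replication genes, and CCAAT boxes bound by NF-Y are common in promoters of mitosis genes.
A CCAAT box on either strand was found in 17 of the 19 promoters matched for the 22 members (89.5%, against 37.5% of all genes), and the E2F site TTTCGCGC in 3 (15.8%, against 0.300%).
The letters TTTGAA, the core of the cell cycle homology region, were in 5 (26.3%, against 18.3%).
Of the genes with the E2F site, *Mcm5* and *Mcm6* were lower on day 28 than on day 21, calls that were lost without day 28 replicate 10. *Cdk1* was not among the members lower on day 28. The E2F windows lie for *Cdk1* at chr10:69353010-69353069, minus strand, *Mcm5* at chr8:75109330-75109389, plus strand and *Mcm6* at chr1:128359778-128359837, minus strand, with the site in capitals.
Cdk1: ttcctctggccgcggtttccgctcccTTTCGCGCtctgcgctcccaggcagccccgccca
Mcm5: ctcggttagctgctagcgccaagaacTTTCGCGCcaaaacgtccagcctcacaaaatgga
Mcm6: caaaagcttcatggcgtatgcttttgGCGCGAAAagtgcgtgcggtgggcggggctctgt

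*Mki67*, the gene of the proliferation antigen Ki-67, ranged from 11.4 to 28.3 CPM (median 18.7) in CTRL mice and from 36.1 to 151 CPM (median 65.5) on day 21 (log2FC 2.10, SE 0.24, adjusted p = 2.40e-11), without overlap.
The mitotic cyclin *Ccnb1* had the largest rise (log2FC 2.64, adjusted p = 4.33e-12), and its kinase *Cdk1* lay at 2.05 to 4.74 CPM in CTRL mice (median 3.09) and at 7.26 to 31.3 CPM on day 21 (median 16.8) (log2FC 2.53, adjusted p = 1.06e-13).
Replication genes rose less, the helicase subunits *Mcm2*, *Mcm5* and *Mcm6* by 0.78, 1.08 and 0.63 and the sliding clamp *Pcna* by 0.48.

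The stress and lipid lists had small median changes, while single genes in them changed by more.
Of 16 genes of the endoplasmic reticulum 10 rose and 2 fell (median log2FC 0.27), the chaperone *Hspa5* by 0.47 and *Sdf2l1* by 1.29, while *Xbp1* did not pass the test (log2FC 0.13) and *Ddit3*, a mediator of stress-induced death, fell (log2FC -0.30, adjusted p = 0.0117).
Targets of NRF2, the regulator of antioxidant genes, rose in 8 of 10 cases.
The cystine transporter *Slc7a11* and heme oxygenase *Hmox1* rose by 1.93 and 1.61 and *Gclc* by 0.47, whereas *Nqo1*, a much used marker of NRF2, did not pass the test (log2FC -0.29).
Of 17 genes of fatty acid and cholesterol synthesis 8 rose, led by the desaturase *Scd1*, at 797 to 1910.3 CPM in CTRL mice (median 1266) and at 2085 to 5540.3 CPM on day 21 (median 3572) (log2FC 1.58, adjusted p = 4.54e-10).
*Fasn* and *Hmgcs1* rose by 0.52 and 0.39, and their regulator *Srebf1* did not pass the test (log2FC -0.03).

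In xenobiotic metabolism all 12 members were lower (median log2FC -1.51).
The flavin monooxygenase *Fmo2* ranged from 1369 to 2586 CPM (median 1695) in CTRL mice and from 322 to 882 CPM (median 633) on day 21 (log2FC -1.55, SE 0.17, adjusted p = 1.08e-11).
*Cyp2f2* ranged from 2197 to 3013 CPM (median 2479) in CTRL mice and from 395 to 1705 CPM (median 781) on day 21.
*Cyp1a1*, *Cyp4b1*, *Cyp2b10*, *Cyp2e1* and *Aox3* fell too (log2FC -3.63, -1.48, -1.03, -2.96 and -1.54).
The call of *Cyp2e1* as higher on day 28 was lost without day 28 replicate 10, a mouse with high levels of fat genes, and the part of fat RNA in its fall was not tested. Members of this list belong to club cells, endothelium and fibroblasts, whose markers fell as well, and the part of cell composition in the fall was not tested.

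Every gene of the circadian clock list was a DEG, 12 of 16 lower (75%) and 4 higher (25%), against 25.8% and 28.3% of all genes.
In the clock, ARNTL (also called BMAL1) and CLOCK switch on the period, cryptochrome and PAR bZIP genes through the E-box CACGTG, and the period and cryptochrome proteins repress them in turn.
Within 250 bases before the start, 5 of the 14 members matched of 16 held this E-box (35.7%, against 6.86% of all genes), and all 5 of them fell.
The D-box TTATGTAA, bound by the PAR bZIP factors, was in 1 (7.14%, against 0.977%).
The windows printed lie for *Per1* at chr11:69098756-69098815, plus strand, *Cry1* at chr10:85185082-85185141, minus strand and *Tef* at chr15:81802519-81802578, plus strand, with the E-box in capitals.
Per1: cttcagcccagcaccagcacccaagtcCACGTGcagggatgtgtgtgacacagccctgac
Cry1: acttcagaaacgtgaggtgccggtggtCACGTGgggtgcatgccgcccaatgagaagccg
Tef: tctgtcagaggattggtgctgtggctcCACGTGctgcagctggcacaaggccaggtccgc

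The activator *Arntl* rose, at 2.76 to 5.57 CPM in CTRL mice (median 3.45) and at 4.06 to 11.6 CPM on day 21 (median 7.75) (log2FC 1.12, adjusted p = 6.18e-04).
Its partner *Clock* and the related *Npas2* rose too (log2FC 0.24 and 0.75).
The output gene *Dbp* fell, between 138 and 356 CPM in CTRL mice, with a median of 255, and between 68.3 and 177 CPM on day 21, with a median of 126 (log2FC -0.93, adjusted p = 0.00339).
The repressor *Nr1d1* fell by 0.74 and *Hlf* by the most (log2FC -1.41, adjusted p = 8.30e-10).
*Per1*, *Cry1* and *Tef* had log2FC of -0.57, -0.94 and -0.98.
*Per2* ranged from 92.8 to 197 CPM (median 118) in CTRL mice and from 34.4 to 68.2 CPM (median 52.02) on day 21 (log2FC -1.32, SE 0.18, adjusted p = 3.30e-09).
The CTRL mice were not uniform in this gene, since replicates 7 to 10 had 161 to 197 CPM and the other 6 mice 92.8 to 123 CPM.
Clock genes follow the hour of the day, no source used here gives the hour at which each mouse was killed, and the part of that hour in these differences was not tested.

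Of 13 genes of coagulation and plasminogen activation 9 rose and 1 fell (median log2FC 1.36).
Factor VII (*F7*) ranged from 9.23 to 13.8 CPM (median 11.2) in CTRL mice and from 26.4 to 97.8 CPM (median 50.5) on day 21 (log2FC 2.16, adjusted p = 1.24e-11).
The urokinase *Plau* rose by 1.49.
Tissue factor (*F3*) did not pass the test (log2FC 0.39), and *Thbd*, the anticoagulant thrombomodulin of endothelium, fell (log2FC -0.56, adjusted p = 3.12e-04), without overlap.

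Markers of tissue that can be carried along with a lobe were checked as whole lists.
All 5 red blood cell genes were lower on day 21 (*Hbb-bs* -0.69, *Hba-a1* -0.82, *Hba-a2* -0.88 and *Alas2* -0.91 on the log2 scale), with a summed level of 1095 to 2875 CPM in CTRL mice and 589.8 to 1755 CPM on day 21.
For the atrial and pulmonary vein muscle genes (*Myh6*, *Myl7*, *Tnnt2*), edgeR called 0 of 7, with 0 at an unadjusted p under 0.05 and 0 by DESeq2 but 1 of 6 in the fit of CTRL and day 21 mice alone, at summed levels of 70.7 to 298 and 50.1 to 383 CPM.
For skeletal muscle (*Ckm*, *Mylpf*), edgeR called 0 of 3, with 0 at an unadjusted p under 0.05 and 1 by DESeq2 and 1 in the fit of CTRL and day 21 mice alone, at summed levels of 3.60 to 7.31 and 3.28 to 8.15 CPM.
Thymus and brown fat genes (*Rag1*, *Dntt*, *Cidea*, *Cox7a1*) lay at low levels, 10.5 to 37.2 and 9.16 to 19.8 CPM for the first list and 2.04 to 4.85 and 1.33 to 3.07 CPM for the second, with 1 member lower in each, *Rag1* by 1.77 and *Cidea* by 0.91 on the log2 scale.
Of the 5 mesothelial genes 1 rose, *Msln* (log2FC 1.19, adjusted p = 6.03e-05), and *Upk3b* and *Wt1* did not pass the test (log2FC -0.28 and 0.12).
Of 5 genes of nerve sheath cells 2 rose, among them *S100b* (log2FC 1.54, adjusted p = 1.14e-08), and 1 fell.
Of 6 mitochondrially encoded genes 4 fell, *mt-Nd2* and *mt-Cytb* among them by 0.65 and 0.36, and *mt-Co1* and *mt-Nd1* did not pass the test (log2FC -0.21 and -0.22). Genes of white fat, chosen after their values were seen, were lower on day 21, with *Adipoq*, the adiponectin gene, at 0.159 to 3.66 CPM in CTRL mice (median 1.61) and at 0 to 0.898 CPM on day 21 (median 0) (log2FC -3.68, adjusted p = 0.0238).
*Cfd* lay at 2.62 to 32.9 CPM in CTRL mice (median 15.4) and at 0 to 6.53 CPM on day 21 (median 0.103).
RNA of red blood cells and fat was thus lower in the day 21 libraries, and its part in the other results was not tested.
The marker genes *Ly6g* of neutrophils, *Ptcra* of thymus, *Acta1* of skeletal muscle, *Ucp1* of brown fat and *Sox10* of nerve did not pass the filter on low counts.

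Of the other genes named, *Col4a1*, *Fgfr2*, *Tagln*, *Slc7a10*, *Ccdc39*, *Ackr1*, *Foxp3*, *Ciita*, *Irf7*, *Ddit3*, *Srebf1*, *Dbp*, *Nr1d1*, *Rag1*, *Mcm7* and *Orc1* overlap another gene that holds at least 20% as many counts, so that reads could have been split between them, and their values are uncertain to that extent.
The same holds for near-identical copies such as *Hba-a1* and *Hba-a2* and for the antibody constant regions.
Among the other genes named as changed on day 21 against CTRL, the calls of *Postn*, *Col4a3*, *Siglecf*, *H2-Ob*, *Clock*, *Rag1* and *Cidea* held in 18, 10, 17, 17, 11, 11 and 14 of the 22 fits that left out 1 mouse, and those of *Ighg2c* and *Ciita* in 21.

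The 12 day 21 mice differed from each other more than the CTRL mice did.
The median SD of log2 CPM between mice was 0.225 on day 21 and 0.169 in CTRL mice, and 74.3% of genes had the larger SD on day 21.
On the first principal component of the 1000 most variable genes, which held 69.5% of their variance, CTRL mice lay between -34.8 and -28.3 and day 21 mice between -0.0559 (replicate 8) and 50.1 (replicate 5).
Replicates 3, 5 and 10 were farthest from CTRL and replicate 8 was nearest.
The median of the fibrillar collagen genes was above the CTRL mean by 1.03 in replicate 8 and by 3.81 in replicate 10 on the log2 scale, against a range of -0.46 to 0.39 in CTRL mice.
The median of the macrophage list varied less, from 1.39 to 2.29, and that of p53 targets from 0.53 to 1.07.
For AT2 genes the median lay between -1.35 (replicate 10) and 0.19 (replicate 9), so mice on both sides of the CTRL mean entered the comparison.

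**Figure D3:**
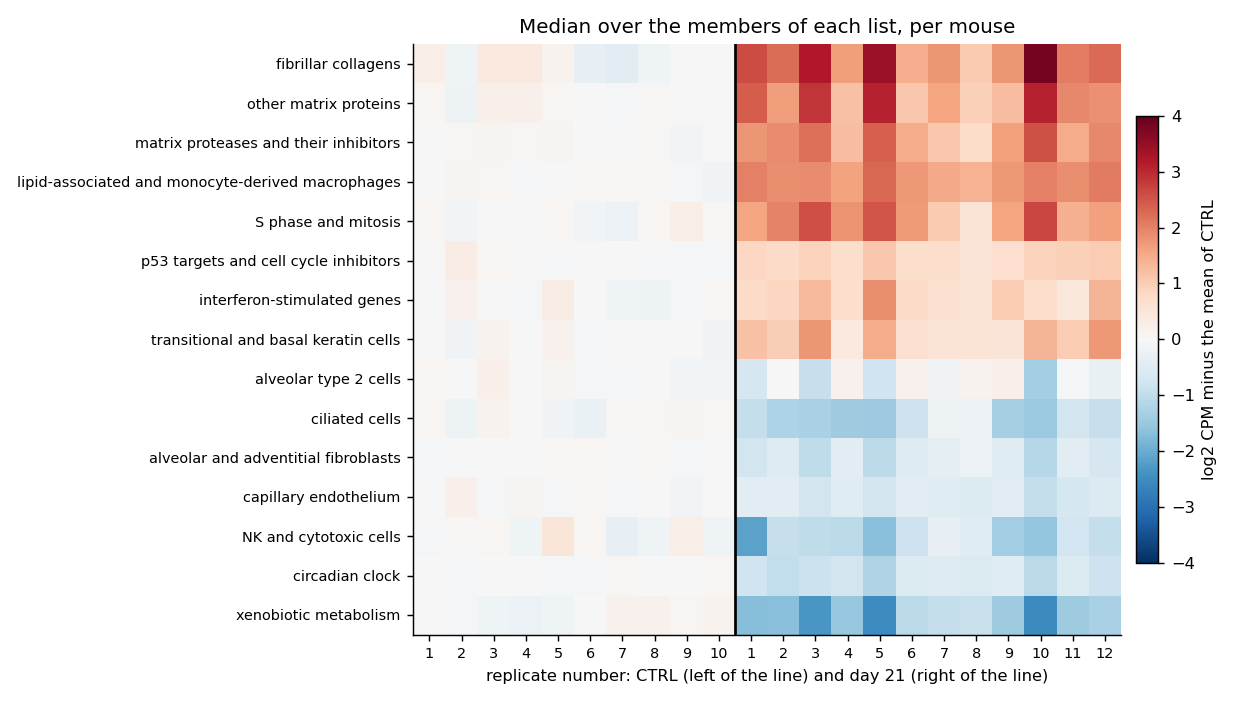
Median over the members of 15 gene lists in each mouse, as log2 CPM minus the CTRL mean of each gene (red above, blue below), with CTRL replicates 1 to 10 left of the line and day 21 replicates 1 to 12 right of it. Day 21 replicates 3, 5 and 10 are darkest for collagens and for xenobiotic metabolism, replicate 8 is palest, and AT2 genes are near 0 in most day 21 mice.

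*Col1a1* was set against 12 other genes over the day 21 mice, genes that were chosen after the data were seen, with two-sided permutation tests on log2 CPM.
*Cyp4b1* was lower where *Col1a1* was higher (Pearson r = -0.97, Spearman rho = -0.98, permutation p = 1.00e-05 and 1.00e-05, adjusted over 12 genes 1.20e-04 and 1.20e-04).
*Timp1* was higher where *Col1a1* was higher (Pearson r = 0.94, Spearman rho = 0.92, permutation p = 7.00e-05 and 9.00e-05, adjusted over 12 genes 2.10e-04 and 5.40e-04).
*Sftpc*, which did not pass the test against CTRL, followed *Col1a1* downward within day 21 (Pearson r = -0.91, Spearman rho = -0.91, permutation p = 3.00e-05 and 1.50e-04, adjusted over 12 genes 1.80e-04 and 6.00e-04), from 15474 CPM in replicate 8 to 5267, 7888 and 5427 CPM in replicates 3, 5 and 10.
*Mki67* (Pearson r = 0.92, Spearman rho = 0.78, permutation p = 1.40e-04 and 0.0041, adjusted over 12 genes 3.36e-04 and 0.00984) and *Spp1* (r = 0.92, rho = 0.83, adjusted permutation p = 2.10e-04 and 0.00414) rose with it. Without replicates 5 and 10, the pair farthest from the median of *Col1a1*, r was -0.93 for *Cyp4b1*, 0.90 for *Timp1*, -0.91 for *Sftpc*, 0.87 for *Mki67* and 0.84 for *Spp1*.
Over the 9 mice other than replicates 3, 5 and 10, r was -0.90, 0.81, -0.82, 0.74 and 0.72.
For *Trem2*, r was 0.68 and rho 0.75 (adjusted permutation p = 0.0226 and 0.0134), and r was 0.54 without the farthest pair and 0.74 over the 9 mice.
For *Cdkn1a*, r was 0.75 and rho 0.73 (adjusted permutation p = 0.0102 and 0.0172), and r was 0.58 without the farthest pair and 0.59 over the 9 mice.
For *Ncr1*, r was -0.75 and rho -0.59 (adjusted permutation p = 0.00888 and 0.0723), and r was -0.51 without the farthest pair and -0.55 over the 9 mice.
The rank correlation of *Ncr1* did not pass the test.
The relations of *Krt8*, *Foxj1*, *Igha* and *Per2* did not pass the test (adjusted permutation p = 0.216, 0.124, 0.26 and 0.124).
All points share the scaling of their library, and the labels name no batch within day 21.

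**Figure D4:**
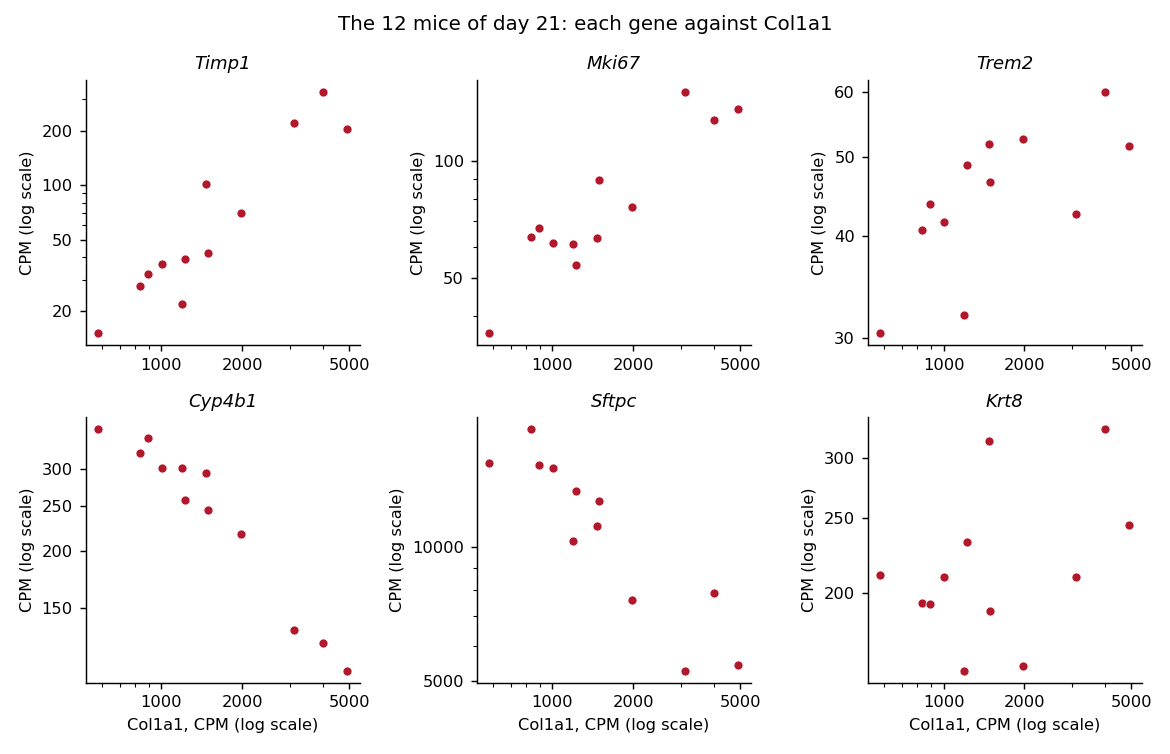
CPM of 6 genes (log axes) against CPM of *Col1a1* in the 12 day 21 mice, 1 point per mouse. *Timp1* and *Mki67* rise and *Cyp4b1* and *Sftpc* fall with *Col1a1*, *Trem2* rises with more scatter, and *Krt8* shows no trend.

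Day 21 was then compared directly with the days before and after it. CTRL mice are on neither side of these comparisons but entered the filter and the shared estimate of the spread, and both comparisons share the 12 day 21 mice.
Against day 14, 167 genes were DEGs (1.03% of those tested), 73 higher (0.45%) and 94 lower (0.579%) on day 21.
These numbers depended on single mice, as leaving out each of the 24 mice in turn gave 1 to 277 genes higher and 4 to 285 lower, with the fewest without day 14 replicate 8.
An edgeR fit of only these groups called 0 genes, with 1738 at an unadjusted p under 0.05.
No DEG had all mice of one day on one side of all mice of the other.
The 5 genes called in every fit that left out a mouse, named after their values were seen, were *A2m*, *Cd177*, *Lpar1* and *Gria3*, lower on day 21, and *Rufy4*, higher. *A2m*, the protease inhibitor alpha-2-macroglobulin, lay at 1.76 to 18.9 CPM on day 14 (median 4.33) and at 0.408 to 3.18 CPM on day 21 (median 1.71) (log2FC -2.11, SE 0.36, adjusted p = 8.49e-04).
*Cd177*, a surface protein of neutrophils, lay at 9.94 to 459 CPM on day 14 (median 41.9) and at 5.30 to 39.5 CPM on day 21 (median 14.98) (log2FC -2.33, SE 0.41, adjusted p = 9.57e-04).
*Lpar1*, with a log2FC of 0.01 against CTRL on day 21, lay at 27.1 to 74.95 CPM on day 14 (median 47.4) and at 25.3 to 39.9 CPM on day 21 (median 29.4) (log2FC -0.69, SE 0.12, adjusted p = 8.49e-04).
*Gria3* had a log2FC of -0.41 and *Rufy4* of 1.14, with adjusted p = 0.0139 and 0.00586.
Of the genes named above, *Cdkn1a* was lower on day 21 than on day 14 (log2FC -0.58, adjusted p = 0.0149), as were *Mdm2* (log2FC -0.26, adjusted p = 0.0143) and *Cxcl13* (log2FC -1.57, adjusted p = 0.0196), and *Siglecf* was higher (log2FC 0.66, adjusted p = 0.0386).
Of 15 AT2 genes 3 were higher on day 21 than on day 14, namely *Sftpa1* (log2FC 0.77), *Slc34a2* (0.61) and *Lpcat1* (0.51), in 10, 11 and 19 of the 24 fits.
The call of *Cdkn1a* held in 23 and that of *Siglecf* in 14 of the 24 fits. Those of *Mdm2* and *Cxcl13* were lost at least in the fit without day 14 replicate 8.
*Col1a1* had a log2FC of -0.39 (SE 0.29) and *Sftpc* of 0.61 (SE 0.18), neither past the threshold.

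Against day 21, 118 genes were DEGs on day 28 (0.727%), 67 higher (0.413%) and 51 lower (0.314%), none with all mice of one day on one side of the other.
Leaving out each of the 24 mice in turn gave 2 to 168 genes higher and 5 to 203 lower, with the fewest without day 28 replicate 10.
An edgeR fit of only these groups called 1 gene, with 1348 at an unadjusted p under 0.05.
Day 28 replicate 10 alone had high levels of fat and muscle genes, with 196 CPM of *Adipoq*, 1150.04 CPM of *Cfd*, 248 CPM of *Ckm* and 717 CPM of the atrial peptide gene *Nppa*.
The calls of these 4 genes as higher on day 28 were absent from the fit without that mouse.
*Cyp1a1* was higher on day 28, at 0.194 to 70.4 CPM (log2FC 2.55, adjusted p = 0.0102), a call that was lost without day 28 replicate 3. Genes of DNA replication were among those that fell after day 21.
Of the S phase and mitosis list 9 members were lower on day 28 than on day 21, namely *Mcm2* to *Mcm7*, *Ccnb2*, *Birc5* and *Rrm2*.
*Mcm3* lay at 31.2 to 67.7 CPM on day 21 (median 45.998) and at 25.04 to 41.1 CPM on day 28 (median 32.3) (log2FC -0.54, SE 0.09, adjusted p = 4.45e-04).
*Cdt1*, which loads the replicative helicase, lay at 8.16 to 18.3 CPM on day 21 (median 12.8) and at 7.07 to 10.6 CPM on day 28 (median 9.07) (log2FC -0.57, SE 0.11, adjusted p = 8.34e-04).
These genes, with *Mcm4* (log2FC -0.33), *Orc1* (-1.04), a subunit of the origin recognition complex, and *Nrm* (-0.46), were the 5 called in every fit that left out a mouse, and *Cdt1*, *Orc1* and *Nrm* were named after their values were seen.
The calls of *Mcm2*, *Mcm5* and *Mcm6* were lost in 1 fit, without day 28 replicate 10, and those of *Ccnb2*, *Birc5* and *Rrm2* held in 16, 11 and 18 of the 24 fits.
*Mki67* did not pass the test (log2FC -0.57, SE 0.21, adjusted p = 0.193), and neither did *Col1a1* (log2FC -0.58, SE 0.29).
*Isg15* and *Ifit1* were lower on day 28 as well (log2FC -0.71, adjusted p = 0.0343, and log2FC -0.65, adjusted p = 0.0454), calls that held in 16 and 10 of the 24 fits.

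**Figure D5:**
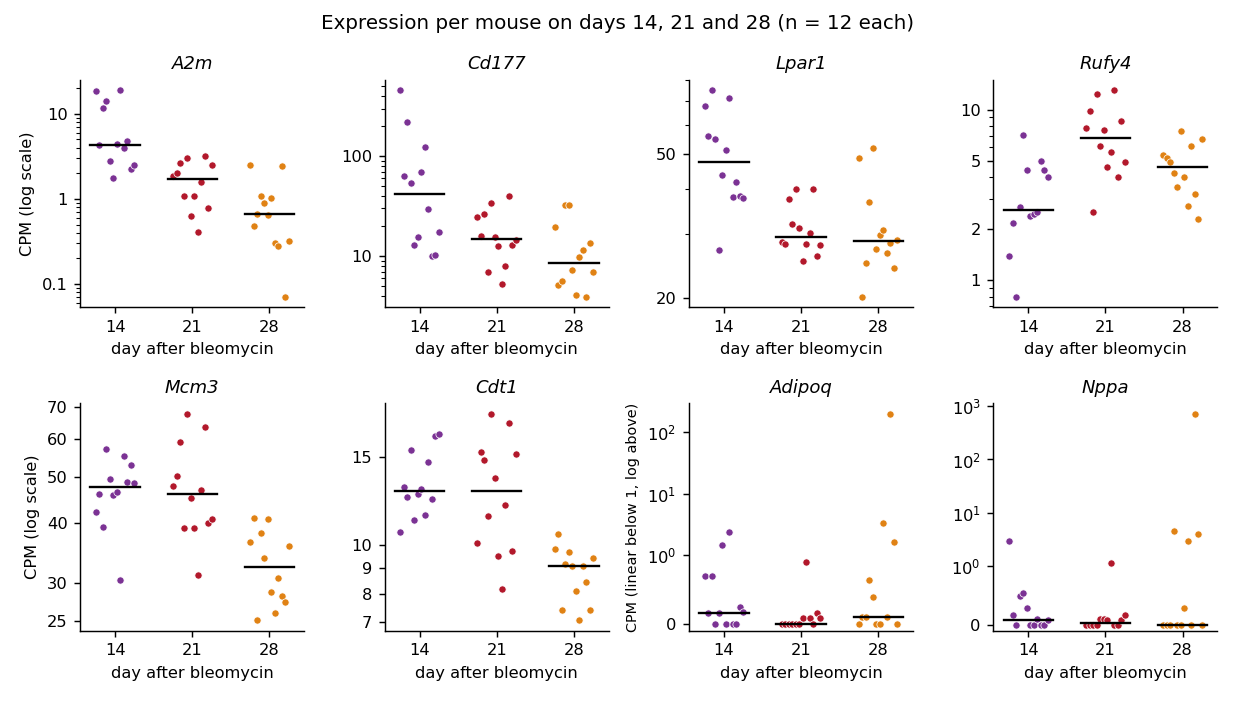
CPM of 8 genes in each mouse on days 14, 21 and 28 (n = 12 each), with the median of each day as a black line, on log axes (linear below 1 CPM for *Adipoq* and *Nppa*). *A2m*, *Cd177* and *Lpar1* are lower and *Rufy4* is higher on day 21 than on day 14, *Mcm3* and *Cdt1* are lower on day 28, and a single day 28 mouse stands far above the rest for *Adipoq* and *Nppa*.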

How the data were processed

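Total RNA of the inferior lung lobe was sequenced from 75 mice, and the 46 of CTRL and days 14, 21 and 28 entered the comparisons. The authors selected polyadenylated RNA, prepared directional libraries, sequenced single-end reads and aligned them with STAR 2.7.0f to GRCm38 with Ensembl release 96. They deposited raw counts of reads per gene, not normalized, in 1 table whose columns name the libraries. The program that counted, and whether it used strand, are not given in the sources used here.

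Groups came from the sample labels. Genes were kept with edgeR's filterByExpr, and 1 quasi-likelihood fit (edgeR 4.0.16 in R 4.3.3, TMM scaling, a mean for each of the 7 groups, no covariate) gave each comparison over the shared spread of all 75 mice. Adjusted p-values are Benjamini-Hochberg values over all 16221 genes that passed, and SE is the absolute log2FC divided by the square root of F. Nothing but the label separates the mice of a group, so p-values rest on the spread between mice within groups, pooled over all 75. Values in log2 CPM used a prior count of 2.

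The 44 gene lists hold 582 genes, of which 561 were tested. They and the comparison itself were chosen with earlier results of these data known, so no list is independent evidence of its direction. Genes are named if they were among the 12 largest increases or 8 largest decreases against CTRL with non-overlapping groups, an average log2 CPM above 1 and a symbol that is no clone name, if they are among the first 3 of a list, or if they had the largest called rise or fall in one. Other members are named for their role. A few members of the lists are not reported here. The same rule with 5 and 5 genes for the neighboring days found none. Promoters were the 250 bases before the start in RefSeq for GRCm38.p6, matched by symbol and searched on both strands.

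On counts simulated for day 21 against CTRL with 15712 genes tested, the test found 45 of 50 genes at a log2FC of -1, 35 of 50 at -0.5, 37 of 50 at 0.5 and 43 of 50 at 1, and it called 6 unchanged genes. The simulation changed only these genes and gave each gene the same dispersion in all groups. In the data 54.2% of genes were DEGs and 74.3% had the larger SD on day 21, so it does not give the error rate under those conditions. Libraries of a group were compared for duplicates, and the smallest chi-square per degree of freedom of any pair was 3.98 in CTRL and 6.45 on day 21, above sampling noise. The counts were also computed with DESeq2 1.42.0, with 2 other scalings and 2 other filters, from the 2 groups of a comparison alone, with a block for the replicate number and with a minimum log2FC of 0.5. Leaving out each mouse in turn, the correlations with *Col1a1* and the floor of 3 counts for *Krt17* were added after seeing the data. Correlations used scipy 1.17.1 with 100000 permutations, whose smallest p is 1.00e-05.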

Additional observations from a re-analysis of the deposited data

Results flagged for a closer look

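Among the 10 CTRL mice, 1 mouse stood apart from the others by Dixon's criterion for 30 of the 272 named genes that could be assessed, where chance flags about 1 in 20 groups. For 14 of them it was CTRL replicate 2, which was highest for *Mmp12* (15.3), *Cyp4b1* (893), *Acvrl1* (1025), *Eng* (945), *Smad7* (132), *Arg1* (4.29), *Saa3* (7.39), *Cx3cl1* (82.4), *Phlda3* (56.9), *Hbb-bs* (1333), *Hba-a1* (677), *Hba-a2* (446) and *Alas2* (120.1) and lowest for *Cnn1* (28.7), all in CPM. These include red blood cell genes and endothelial genes, and the part of blood or vessel content in them was not tested. Without this mouse 4440 genes were higher and 4293 lower on day 21 than in CTRL mice. In the other genes the highest CTRL value came from another mouse, in CPM for *Adamts4* (1.22), *Col11a1* (0.395), *Tagln* (238), *Muc5b* (59.97), *Nos3* (40.5), *Cxcl9* (0.899), *Ighg1* (5.39), *Ighg2c* (0.692), *Ifit1* (31.7), *Tnnt2* (50.6), *Rag1* (18.6), *Dntt* (6.72) and *Nppa* (0.382). The lowest value did so for *Pecam1* (842), *Pcna* (41.6) and *Msln* (24.98). Groups of 12 mice were not assessed in this way.

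Some named genes differed between day 21 and a neighboring day in the test of that difference. Against day 14 on the log2 scale, these were lower on day 21: *Cdkn1a* (-0.58), *Pdgfra* (-0.50), *Lpar1* (-0.69), *Vcam1* (-0.30), *Cxcl13* (-1.57), *Mdm2* (-0.26), *Cry1* (-0.59), *A2m* (-2.11), *Cd177* (-2.33) and *Gria3* (-0.41). Higher were *Fgfr2* (0.49), *Siglecf* (0.66), *Rufy4* (1.14), *Sftpa1* (0.77), *Slc34a2* (0.61) and *Lpcat1* (0.51). Of the calls against day 14, only those of *A2m*, *Cd177*, *Lpar1*, *Gria3* and *Rufy4* held without day 14 replicate 8. From day 21 to day 28, *Isg15* (-0.71), *Ifit1* (-0.65), *Mcm5* (-0.61), *Mcm6* (-0.40), *Mcm2* (-0.50), *Mcm7* (-0.37), *Ccnb2* (-0.77), *Birc5* (-0.78), *Rrm2* (-0.76), *Mcm3* (-0.54), *Cdt1* (-0.57), *Mcm4* (-0.33), *Orc1* (-1.04) and *Nrm* (-0.46) fell, and *Cyp1a1* (2.55), *Cidec* (2.61), *Cfd* (6.26), *Ighm* (2.11), *Cyp2e1* (4.82), *Ckm* (3.47), *Mylpf* (2.97), *Adipoq* (7.00) and *Nppa* (8.55) rose. Of the latter, the calls of *Cidec*, *Cfd*, *Ighm*, *Cyp2e1*, *Ckm*, *Mylpf*, *Adipoq* and *Nppa* were lost without day 28 replicate 10, and that of *Cyp1a1* without day 28 replicate 3.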

How the results depend on the processing

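Against CTRL, the counts of 4598 higher and 4190 lower genes stayed within 1.5 times in 7 alternatives and became 2230 and 1850 with an absolute log2FC of at least 0.5. Leaving out each mouse in turn gave 4170 to 4725 higher and 3935 to 4398 lower. The share of higher genes among the calls was 52.3% and 48.99% with upper quartile factors, and the median log2FC moved by less than 0.1 under every scaling. Of 1632 refits of 274 genes of the naming rule and the text, 16 lost the call, 17 gained one and 0 changed sign. The calls of *Col27a1*, *Col4a3*, *Rag1* and *Clock* were lost with DESeq2 and without the filter, that of *Col27a1* also with library size alone and upper quartile factors, and those of *Col4a3* and *Rag1* also with the replicate block, and those of *Siglecf*, *H2-Ob*, *Cidea* and *Cidec* without the filter. With a log2FC of at least 0.5, the DEGs numbered 8 of 19 in the basement membrane, 5 of 10 among myofibroblast genes, 5 of 14 among AT1 genes, 10 of 18 in complement, 2 of 16 in the endoplasmic reticulum, 4 of 10 among NRF2 targets, 3 of 17 in lipid synthesis, and 1 of 6 of the mitochondrial genome. With at least 10 counts in every mouse, 7 of 8 keratin list genes left were DEGs, 11 of 13 chemokines, 2 of 12 T cell genes, 1 of 6 neutrophil genes and 5 of 6 NK genes. From CTRL and day 21 mice alone, 5 of 10 genes of fluid clearance, 1 of 6 of cardiac and 1 of 3 of skeletal muscle were called.

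The comparisons of neighboring days moved far more, and the cause was not tested. Day 21 against day 14 gave 73 higher and 94 lower genes, 135 and 169 with DESeq2, 32 and 53 without the filter, 0 and 0 in the edgeR fit of only these groups, 37 higher with a log2FC of at least 0.5, and 1 to 277 and 4 to 285 when a mouse was left out. Day 28 against day 21 gave 67 and 51, 106 higher without the filter, 19 and 22 with at least 10 counts, 0 and 1 in the edgeR fit of only these groups, 77 lower with DESeq2, 31 lower with library size as the only scaling, 33 lower with a log2FC of at least 0.5, and 2 to 168 and 5 to 203 when a mouse was left out. The fits of only 2 groups had 1738 and 1348 genes at an unadjusted p under 0.05.

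The labels do not say whether the replicate number pairs mice. Deviations of same-numbered mice from their group means correlated at -0.166 to 0.114 between day 21 and CTRL. The range was -0.358 to 0.386 with day 14 and -0.413 to 0.569 with day 28, and 6 of 12 pairs exceeded 0.1 for each. Whether the number stands for a shared processing step was not tested. With the number as a block, 4646 genes were higher and 4331 lower against CTRL, 56 and 53 against day 14, and 3 and 20 on day 28. Of the same-numbered mice, 1 of 10, 2 of 12 and 3 of 12 correlated best with their own number. Depth limits genes with a few counts per CTRL mouse, such as *Krt17*, *Krt5* and *Col11a1*, whose fold changes depend on the prior count.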
